A study of Rattus norvegicus with 23 samples.

Results

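Reads from glutamate tRNAs were followed in small RNA libraries of rat sperm, with the CTC and TTC anticodons set against each other. The members were all entries of the deposited tRNA table whose name begins with tRNA-Glu-, which were 19 of 273 entries: 9 with the anticodon CTC and 10 with the anticodon TTC. The 2 tRX-Glu entries of the table, which name tRNA-like loci of low confidence, were not members. Each of the 19 entries had a value above 0 in every library, so no member was lost to a filter on low values.

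Glutamate tRNAs carry glutamate to the ribosome, where CTC pairs with the codon GAG and TTC pairs mainly with GAA. Mature sperm make little protein, and much of their small RNA is instead made of tRNA fragments, many of them from the 5′ end of the molecule. In mice, fragments of glycine and glutamate tRNAs are known to be among the most abundant of these and to increase as sperm pass through the epididymis. In tRNA gene names the first number stands for one mature sequence and the last number for one genomic copy, so tRNA-Glu-CTC-1-6 and tRNA-Glu-CTC-1-7 name copies that encode the same mature tRNA.

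The samples were sperm from the cauda epididymis of male Long-Evans rats, 23 in all: 7 breathed filtered air, 8 breathed 0.4 ppm ozone and 8 breathed 0.8 ppm ozone, an oxidant air pollutant. Chamber sessions lasted 4 hours, with 3 sessions in week 1 and 2 sessions in week 2, and the ozone chambers averaged 0.401 and 0.798 ppm. RNA under 200 nucleotides was sequenced as single-end reads of 75 cycles, and each library is labelled as 1 rat. Although 8 rats a group were planned, per the design text, 7 air libraries are analysed here; no age is given in the labels.

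The deposited values are normalized counts: reads per tRNA gene divided by a factor for each library. Since the values were whole multiples of 1 step in each library, reads could be recovered, and the libraries held 164342 to 481504 tRNA reads (median 391901). The shallowest and the deepest library were both from the 0.8 ppm group. How reads that match several tRNA genes were shared out, and which stretch of the tRNA each read covered, is not stated in the labels, so values of near-identical genes are uncertain one by one. No base sequences of these tRNAs were used here. Rat RefSeq (assembly GRCr8) names 20 glutamate tRNA genes with the anticodon CUC and 10 with UUC, each 72 bases long, so levels of the 2 anticodons were set side by side without a correction for length; those genes were not matched to the table's entries.

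Glutamate tRNAs made up 11.1% ± 1.6 (SD, n = 23) of the tRNA values, ranging from 8.31% in air replicate 1 to 14.9% in 0.4 ppm replicate 2. The CTC entries together held 7.21% ± 1.38 of the table and ranked 4th among the 55 sums formed by amino acid and anticodon. The TTC entries held 3.84% ± 1.52 and ranked 7th. The leading sums were tRNA-Gly-GCC with 31.8%, tRNA-Leu-CAA with 16.6% and tRNA-Gly-CCC with 8.32% of the table. In the shallowest library, 0.8 ppm replicate 5, the glutamate share was 12.8% with a Wilson 95% interval of 12.6 to 13.0%, from 21034 reads. Such intervals cover the counting of reads only. Reads were amplified without molecular identifiers, so copies of one molecule count as separate reads and the intervals can be too narrow. They are far narrower than the spread between rats.

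The mean CTC share was above the air mean in both ozone groups, with overlapping ranges. Its lowest, median and highest values were 5.43, 6.21 and 7.59% in air, 6.38, 7.41 and 9.98% at 0.4 ppm, and 4.58, 7.70 and 10.1% at 0.8 ppm. The means were 6.54% in the 7 air rats (SD 0.764), 7.63% in the 8 rats at 0.4 ppm (SD 1.26) and 7.38% in the 8 rats at 0.8 ppm (SD 1.79). In the 0.4 ppm group 4 rats, and in the 0.8 ppm group 5 rats, lay above the highest air rat, while 1 rat of the 0.8 ppm group lay below the lowest. A share can move because the other tRNAs moved. Among the alternative fits, limma on values scaled to the same total in each library compares such shares. There the CTC sum had a log2 fold change of 0.21 at 0.4 ppm against air (limma adjusted p = 0.84). At 0.8 ppm against air it was 0.14 (limma adjusted p = 0.713).

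The TTC share was spread over a wider relative range. Its lowest, median and highest values were 2.22, 4.36 and 5.66% in air, 1.99, 3.04 and 4.88% at 0.4 ppm, and 2.12, 3.72 and 7.63% at 0.8 ppm. The means were 4.06% in the 7 air rats (SD 1.41), 3.27% in the 8 rats at 0.4 ppm (SD 0.972) and 4.23% in the 8 rats at 0.8 ppm (SD 2.00). Of the 0.4 ppm rats 7, and of the 0.8 ppm rats 4, fell inside the air range, so the groups overlapped. Among the 14 sums that held at least 1% of the table, the TTC sum had the largest SD between rats of one group, 0.639 on the log2 scale, against a median of 0.483 over those 14; the CTC sum, at 0.482, was 8th.

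The balance between the anticodons was not fixed from rat to rat. Summed CTC values were above summed TTC values in 21 of 23 libraries, and the CTC:TTC ratio ran from 0.600 in 0.8 ppm replicate 4 to 4.09 in 0.8 ppm replicate 7, a 6.81-fold range that lay within one exposure group. In air the ratios of replicates 1 to 7 were 2.75, 1.09, 1.24, 1.15, 1.49, 3.37 and 1.91. At 0.4 ppm the ratios of replicates 1 to 8 were 2.72, 2.05, 2.21, 1.91, 3.20, 2.56, 2.66 and 2.13. At 0.8 ppm the ratios of replicates 1 to 8 were 3.62, 0.985, 1.92, 0.600, 1.11, 3.54, 4.09 and 2.31. Each group included at least 1 rat with a ratio above 3. The lowest ratio was 1.09 in air, 1.91 at 0.4 ppm and 0.600 at 0.8 ppm. The means were 1.86 over the 7 air rats (SD 0.882), 2.43 over the 8 rats at 0.4 ppm (SD 0.433) and 2.27 over the 8 rats at 0.8 ppm (SD 1.34), and the 3 ranges overlapped. The difference in spread between the groups was not tested.

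**Figure D1:**
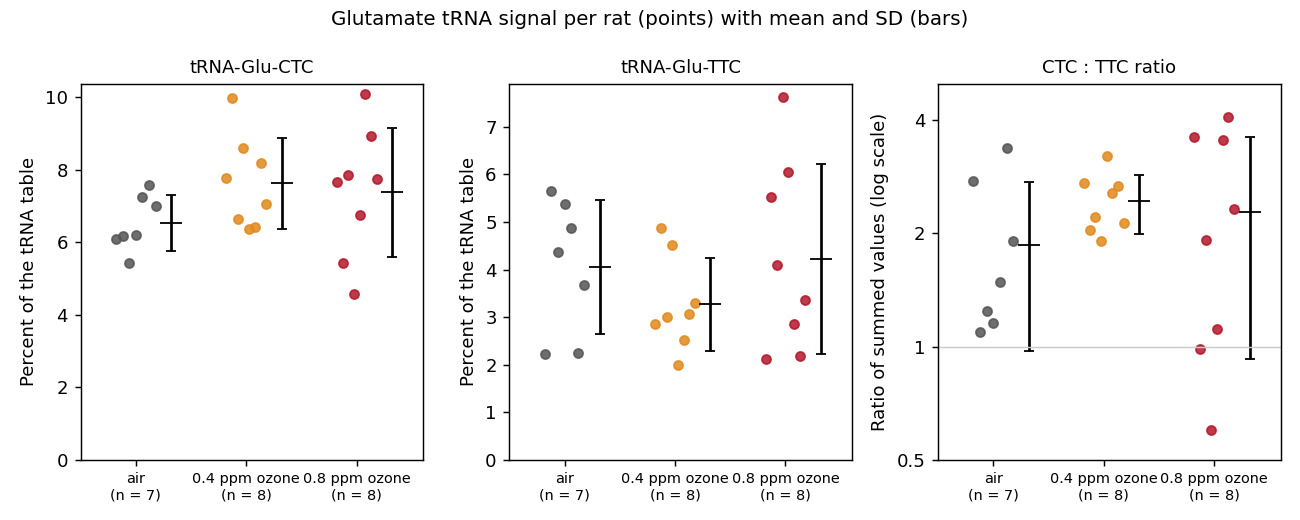
Share of the tRNA table held by glutamate CTC and TTC entries (percent) and the ratio of the CTC to the TTC sum (log axis), 1 point for each rat, by exposure group, with bars for the mean and SD of each group. The groups overlap in every panel, and the ratio spans 0.600 to 4.09 within the 0.8 ppm group alone.

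Most CTC signal came from 2 sets of entries. The most abundant were tRNA-Glu-CTC-1-6, with a mean normalized count of 4810 ± 1817 (SD, n = 23), and tRNA-Glu-CTC-1-7, with 4801 ± 1847. In tRNA-Glu-CTC-1-6 the lowest, median and highest values were 2640, 5360 and 6737 in air, 2607, 4984 and 8999 at 0.4 ppm, and 1954, 3778 and 6082 at 0.8 ppm. For tRNA-Glu-CTC-1-7 they were 2676, 5418 and 6819 in air, 2539, 4915 and 9127 at 0.4 ppm, and 1953, 3754 and 5897 at 0.8 ppm. Both copies were lowest in 0.8 ppm replicate 4 and highest in 0.4 ppm replicate 2, and their groups overlapped. Together they held 37.4% ± 6.34 of the CTC signal, while copies 1-1 to 1-5 and tRNA-Glu-CTC-3-1 held 62.3% ± 6.30. The lowest CTC entry, tRNA-Glu-CTC-2-1, was far below the rest at 64.7 ± 21.9 (SD, n = 23).

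Most TTC signal came from 4 entries, tRNA-Glu-TTC-2-1, 2-2, 4-1 and 4-3, which together held 88.2% ± 3.93 of it (SD, n = 23). The normalized count of tRNA-Glu-TTC-4-1 had lowest, median and highest values of 1434, 4154 and 4654 in air, 1444, 2829 and 5129 at 0.4 ppm, and 1144, 2770 and 5670 at 0.8 ppm. The values of tRNA-Glu-TTC-4-3 ran beside it, with means of 3557 in air, 2803 at 0.4 ppm and 2899 at 0.8 ppm. The air median lay above the medians of both ozone groups, but air replicate 1 was among the lowest of all rats and the 3 ranges overlapped. The remaining TTC entries were lower: tRNA-Glu-TTC-3-1 averaged 587 ± 148 and tRNA-Glu-TTC-4-2 averaged 339 ± 58.0 (SD, n = 23). The lowest member was tRNA-Glu-TTC-5-1, with 9.62 ± 6.03 and only 2 to 19 recovered reads per library.

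**Figure D2:**
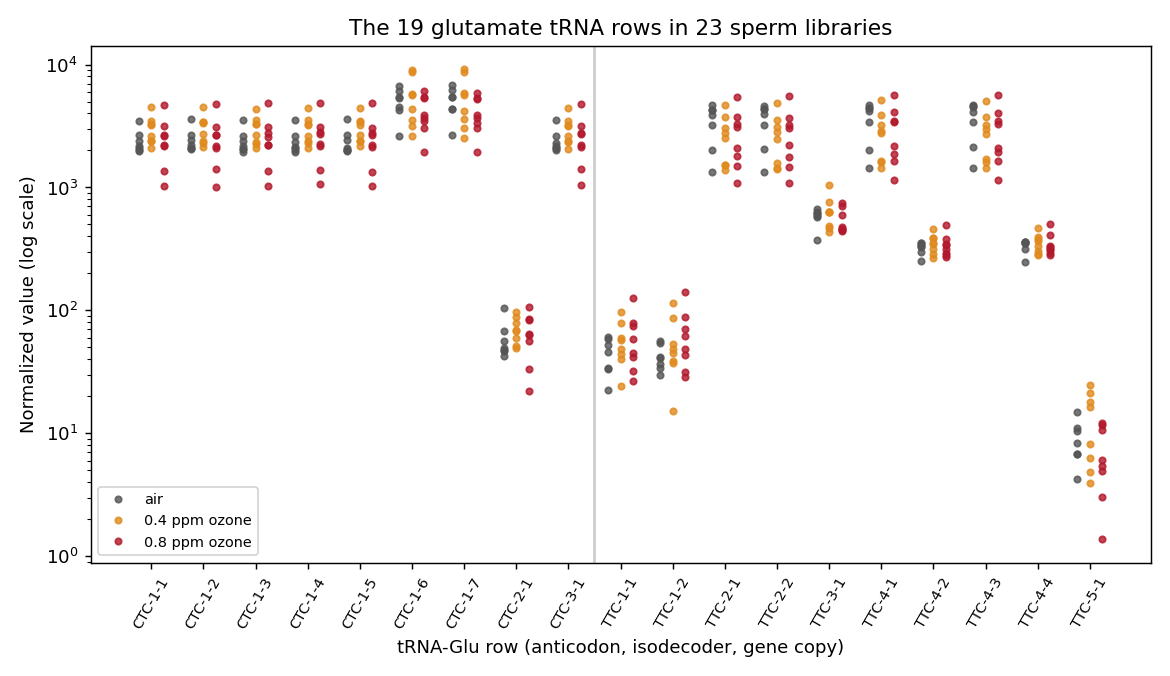
Normalized counts of the 19 glutamate tRNA entries on a log10 axis, 1 point for each rat, by exposure group. CTC-1-6 and CTC-1-7 are highest among the CTC entries, 4 TTC entries stand above the other 6, and TTC-5-1 is lowest with a mean of 9.62.

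Several entries had nearly equal values. The recovered reads of tRNA-Glu-CTC-1-1 to 1-5 and 3-1 differed from an even split by a chi-square per degree of freedom of 1.01 (mean of 23 libraries), where a value near 1 is what counting noise gives. The pairs CTC-1-6 and 1-7, TTC-2-1 and 2-2, TTC-4-1 and 4-3, TTC-4-2 and 4-4, and TTC-1-1 and 1-2 gave 0.870, 0.913, 0.883, 0.616 and 0.907. Adding tRX-Glu-NNN-3-1 to the CTC-1-1 to 1-5 and 3-1 set gave 1.08, so this entry outside the members also had values equal within counting noise. The 19 entries may therefore hold fewer independent measurements than their number; whether the same reads were placed on several entries is not stated in the labels. These sets were found by looking at the values.

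Other copies that share a mature sequence by name did not share their values. The chi-square per degree of freedom was 402 over tRNA-Glu-CTC-1-1 to 1-7 and 1515 over tRNA-Glu-TTC-4-1 to 4-4. Per entry, copies CTC-1-6 and 1-7 exceeded the mean of copies 1-1 to 1-5 in 23 of 23 libraries, by 1.85 ± 0.502 times (SD, n = 23, range 1.21 to 2.84). Such a ratio depends on how reads were shared among entries, which is not stated in the labels. In sum, copies 1-1 to 1-5 and 3-1 held more of the CTC signal, 62.3% against 37.4% for 1-6 and 1-7. The group means of this ratio were 2.12 in air (SD 0.568, 7 rats), 1.73 at 0.4 ppm (SD 0.527, 8 rats) and 1.73 at 0.8 ppm (SD 0.359, 8 rats). Copies TTC-4-1 and 4-3 exceeded copies 4-2 and 4-4 by 8.81 ± 3.17 times (SD, n = 23, range 3.79 to 13.9). Here the group means were 10.5 ± 3.38 in air, 7.91 ± 2.77 at 0.4 ppm and 8.22 ± 3.14 at 0.8 ppm. In contrast TTC-4-1 and 4-3 lay close to TTC-2-1 and 2-2, which bear another sequence number, with a ratio of 1.06 ± 0.0299 (range 0.985 to 1.11). Those 4 entries together gave a chi-square per degree of freedom of 4.58 (mean of 23 libraries), above what counting noise gives. The ratios between copies were on average highest in air, with overlapping groups, and these differences were not tested.

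**Figure D3:**
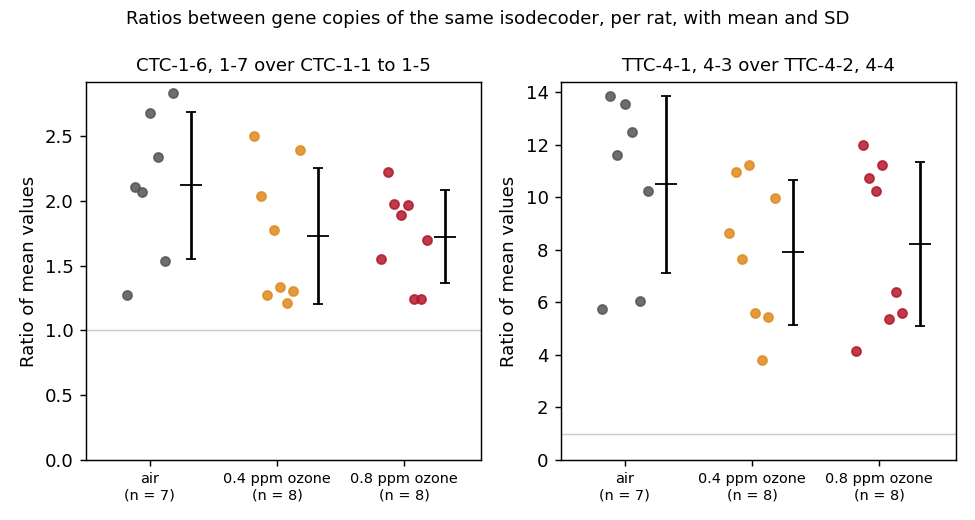
Ratios between copies of one glutamate tRNA, 1 point for each rat, by exposure group, with bars for the mean and SD of each group: CTC-1-6 and 1-7 over CTC-1-1 to 1-5 (left), and TTC-4-1 and 4-3 over TTC-4-2 and 4-4 (right), with a grey line at a ratio of 1. The left ratio is above 1 in every rat, and the right one varies from 3.79 to 13.9. Both are ratios of mean values per entry.

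The comparison of 0.4 ppm ozone with air asks whether the milder exposure shifts sperm tRNA content. No glutamate entry was called: 0 of 19 passed an adjusted p of 0.05 in limma, a linear model fitted over all 273 entries on log2(value + 1), against 0.0% of the 273 entries called. At an unadjusted p under 0.05 there were 0 glutamate entries, against 5.86% of all entries, and edgeR on recovered reads and the exact Wilcoxon rank-sum test also called 0. Fold changes were positive for 8 of 9 CTC entries and 6 of 10 TTC entries, against 48.0% of all entries, and many of those entries had nearly equal values in each library. The median log2 fold change was 0.29 over the CTC entries, 0.08 over the TTC entries and -0.01 over all 273. No entry had groups that did not overlap, also 0.0% of all entries.

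Among CTC entries the smallest p for 0.4 ppm belonged to tRNA-Glu-CTC-1-5. Its lowest, median and highest normalized counts were 2184, 2962 and 4427 at 0.4 ppm, and 1994, 2090 and 3581 in air. The 0.4 ppm median was higher, air replicate 6 reached into the upper part of the ozone range, and limma gave a log2 fold change of 0.33 ± 0.25 (SE; adjusted p = 0.779). Among TTC entries it belonged to tRNA-Glu-TTC-2-2, with 1424, 2654 and 4870 at 0.4 ppm, and 1343, 3982 and 4593 in air. The 0.4 ppm median was lower and the ranges nearly coincided, with a log2 fold change of -0.38 ± 0.31 (SE; limma adjusted p = 0.779).

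The sums of the 2 anticodons had fold changes of opposite sign, and neither passed the threshold; 0.0% of the 55 sums were called, and 3.64% had an unadjusted p under 0.05, neither glutamate sum among them. The CTC sum averaged 28743 at 0.4 ppm and 24558 in air, a log2 fold change of 0.19 ± 0.24 (SE; 95% interval -0.30 to 0.68; limma adjusted p = 0.692 over 55 sums). The TTC sum averaged 12392 at 0.4 ppm and 15179 in air, a log2 fold change of -0.30 ± 0.29 (95% interval -0.90 to 0.29; adjusted p = 0.669). The CTC direction turned to -0.17 under quantile normalization. The difference between the 2 anticodons' fold changes was not tested.

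The comparison of 0.8 ppm ozone with air gave 0 of 19 glutamate entries past the limma threshold, against 0.0% of all entries. At an unadjusted p under 0.05 limma had 0 glutamate entries, against 1.83% of all entries. At the adjusted threshold edgeR and the Wilcoxon test called 0. Unadjusted, edgeR had 1 glutamate entry under 0.05, tRNA-Glu-TTC-1-2, among 9 of all 273 entries. Its log2 fold change there was 0.70 (edgeR unadjusted p = 0.0363, adjusted p = 0.886). Fold changes were positive for 1 of 9 CTC and 4 of 10 TTC entries, against 47.6% of all entries, and many of those entries had nearly equal values. The median log2 fold change was -0.05 over CTC, -0.21 over TTC and -0.02 over all entries. No glutamate entry had groups that did not overlap (0.0% of all entries).

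The CTC entry with the smallest p at 0.8 ppm was tRNA-Glu-CTC-1-7, whose values in each group stand above: the 0.8 ppm median was 3754 and the air median 5418. The fit gave a log2 fold change of -0.34 ± 0.27 (SE; limma adjusted p = 0.935), which turned to 0.12 with the summed tRNA value of each library as a covariate. The TTC entry was the scarce tRNA-Glu-TTC-1-2, with lowest, median and highest values of 28.6, 55.0 and 141 at 0.8 ppm, and 29.8, 40.7 and 56.6 in air. The highest 0.8 ppm rat, replicate 8, lay far above the air range while the lowest rats of both groups were alike, and the log2 fold change was 0.46 ± 0.31 (adjusted p = 0.935).

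Summed CTC values averaged 23306 at 0.8 ppm and 24558 in air, a log2 fold change of -0.16 ± 0.24 (SE; 95% interval -0.65 to 0.33; limma adjusted p = 0.895). Summed TTC values averaged 12702 at 0.8 ppm and 15179 in air, a log2 fold change of -0.30 ± 0.29 (95% interval -0.90 to 0.30; adjusted p = 0.895). The total of all tRNA values was lower in the 0.8 ppm libraries, at 309559 ± 82638 (SD, n = 8), than in the air libraries, at 373594 ± 45278 (n = 7). When each library was scaled to the same total, which by construction moves all entries alike, the median of all entries moved to 0.28 and the glutamate sums to 0.14 for CTC and 0.002 for TTC. Both sums lay below the median of all entries under both scalings. With the summed tRNA value as a covariate the CTC sum turned to 0.24 (limma adjusted p = 0.933) and the TTC sum was -0.02, while the median of all entries was -0.03. Giving each library a weight by its fit made 4 TTC entries pass, tRNA-Glu-TTC-2-1, 2-2, 4-1 and 4-3, with log2 fold changes of -0.87, -0.89, -0.82 and -0.84 (limma adjusted p = 0.0394 each). In a separate weighted fit over the 55 sums, with its own weights, the TTC sum was -0.71 (limma adjusted p = 0.0501). The 4 TTC entries had values close to one another. In the weighted fit over entries 22 of 273 passed, and its weights ran from 0.319 to 3.40. In tRNA-Glu-TTC-4-1 the highest air rat, replicate 4, had the weight 3.40, and the lowest, replicate 1, had 0.728. The highest 0.8 ppm rat, replicate 5, had the weight 0.329, and the lowest, replicate 1, had 1.92. These calls therefore depend on how the rats were weighted.

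**Figure D4:**
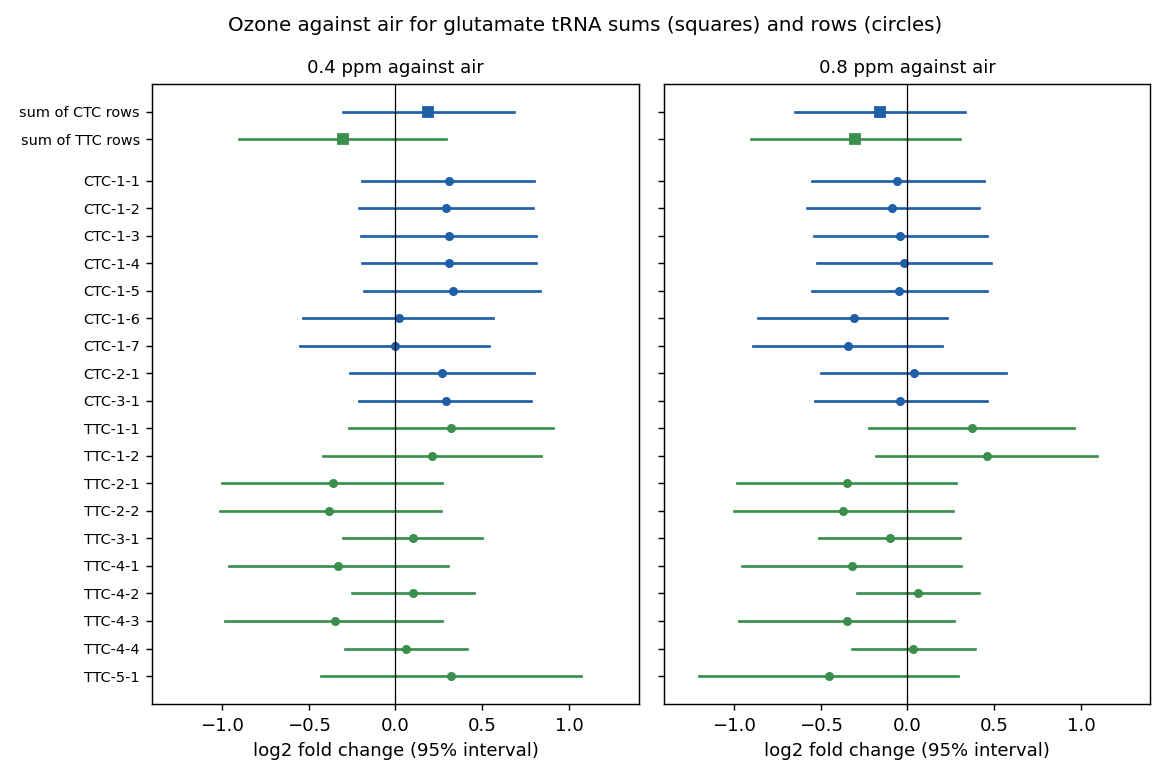
Log2 fold changes of the CTC and TTC sums (squares) and of the 19 glutamate entries (circles) at 0.4 ppm against air (left) and 0.8 ppm against air (right), CTC in blue and TTC in green, with 95% intervals from the limma fits. Every interval shown includes 0, and no entry or sum passes the adjusted threshold.

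Set against 0.4 ppm, the 0.8 ppm group had 0 of 19 glutamate entries past the limma threshold, against 0.0% of all entries, and edgeR and the Wilcoxon test called 0. At an unadjusted p under 0.05 there was 1 glutamate entry, tRNA-Glu-TTC-5-1, against 2.2% of all entries. Its lowest, median and highest values were 1.38, 5.72 and 12.1 at 0.8 ppm, and 3.96, 12.2 and 24.6 at 0.4 ppm. Of the 0.4 ppm rats 4 lay above the highest 0.8 ppm rat and the rest overlapped, with a log2 fold change of -0.77 ± 0.36 (SE; limma unadjusted p = 0.0364, adjusted p = 0.751). This entry rests on at most 19 reads per library. Its unadjusted p was 0.05 or more in 4 of 11 other settings: 0.161 with the exact Wilcoxon test, and in limma 0.142 with table-total scaling, 0.0773 with quantile normalization and 0.26 with the summed tRNA covariate. It was also 0.05 or more in 7 of 23 limma fits that left out 1 rat, up to 0.117 without 0.8 ppm replicate 4; the other 6 left out 0.4 ppm replicates 1, 2, 4 and 8 and 0.8 ppm replicates 1 and 7.

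All 9 CTC entries had negative fold changes in that comparison, but many of them had nearly equal values in each library. Fold changes were positive in 0 of 9 CTC entries and 6 of 10 TTC entries, against 48.4% of all entries. The median log2 fold change was -0.34 over CTC, 0.01 over TTC and -0.01 over all entries. The smallest CTC p was that of tRNA-Glu-CTC-1-2, with lowest, median and highest values of 1006, 2428 and 4735 at 0.8 ppm, and 2141, 3040 and 4491 at 0.4 ppm. The 0.8 ppm rats spread to both sides of the 0.4 ppm range, and limma gave a log2 fold change of -0.38 ± 0.24 (SE; adjusted p = 0.788). The CTC sum had a log2 fold change of -0.35 ± 0.23 (95% interval -0.83 to 0.13; adjusted p = 0.788) and the TTC sum of 0.00 ± 0.28 (-0.57 to 0.58; adjusted p = 0.999), where 1.82% of the 55 sums had an unadjusted p under 0.05, neither of these among them. The CTC sum turned to 0.11 under quantile normalization and to 0.02 with the summed tRNA value as a covariate. The total of all tRNA values averaged 309559 at 0.8 ppm and 373679 at 0.4 ppm. When each library was scaled to the same total, the CTC sum was -0.07 and the TTC sum 0.28. The median of all entries then moved to 0.26. Both ozone comparisons with air share the 7 air rats, and both 0.4 ppm comparisons share the 8 rats of that group.

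Other tRNAs whose fragments are known from sperm had these values, none past the threshold over the 55 sums. At 0.4 ppm against air the log2 fold changes were -0.01 for tRNA-Gly-GCC, 0.29 for tRNA-Val-CAC and 0.28 for tRNA-His-GTG. At 0.8 ppm against air they were -0.44, -0.15 and 0.17 in the same order. No difference between glutamate and these tRNAs was tested.

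Over the 23 libraries the anticodons had different nearest patterns. The summed CTC values, on the log2(value + 1) scale, were most like those of tRNA-Gly-CCC (Pearson r = 0.886, Spearman rho = 0.855), tRNA-Gly-GCC (0.884 and 0.845) and the tRX-Gly entries (0.853 and 0.781). The summed TTC values were most like those of tRNA-Arg-CCG (r = 0.806, rho = 0.757), tRNA-Arg-TCG (0.747 and 0.763) and tRNA-Leu-AAG (0.728 and 0.716). Without the 2 libraries farthest from the median of the glutamate sum, these 6 r values lay between 0.657 and 0.819. CTC with TTC gave r = 0.199 and rho = 0.291 over 23 libraries, and r = 0.450 without 0.8 ppm replicates 2 and 4. Within groups this r was 0.172 in air, 0.927 at 0.4 ppm and -0.199 at 0.8 ppm. The nearest sums were picked by r among 53 other sums for each anticodon, the tRX-Glu sum left out, so their r values are the highest of many. These values are descriptions without a test, and all sums of a library share its depth and scaling factor.

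In a sperm pellet, fewer cells of a type and less RNA per cell cannot be told apart, and other cells can be present, so miRNAs that mark cell types were read from the miRNA table of the same libraries. The 6 germ cell miRNAs, such as miR-34c-5p, were all present in the table and summed to 41.0% of it in air (range 30.2 to 46.2%), 34.4% at 0.4 ppm (23.4 to 42.1%) and 40.1% at 0.8 ppm (23.7 to 49.3%). The 5 epithelial miRNAs of the miR-200 family summed to 1.13% in air (0.680 to 1.45%), 1.77% at 0.4 ppm (1.05 to 3.21%) and 1.27% at 0.8 ppm (0.693 to 2.93%). The 5 leukocyte miRNAs summed to 2.76% in air (1.98 to 4.65%), 3.13% at 0.4 ppm (1.96 to 6.26%) and 2.43% at 0.8 ppm (1.67 to 4.59%), with miR-142-3p and miR-223-3p at 0 in some libraries. The muscle and stroma miRNAs, 3 of 4 found, summed to 1.95% in air (1.53 to 2.79%), 2.85% at 0.4 ppm (1.84 to 4.17%) and 3.24% at 0.8 ppm (1.59 to 11.3%, the highest in replicate 7). The erythroid miRNAs, 2 of 3 found, averaged 0.0338% in air (0.0175 to 0.0539%), 0.0586% at 0.4 ppm (0.00589 to 0.141%) and 0.0352% at 0.8 ppm (0.0151 to 0.0561%).

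The log2 CTC:TTC ratio moved with some of these shares. It had r = 0.501 and rho = 0.707 with the muscle and stroma share (percent, not log-scaled) over 23 libraries, and r = 0.613 without the 2 farthest libraries. Within air, 0.4 ppm and 0.8 ppm this r was 0.908, 0.583 and 0.509. With the germ cell share it had r = -0.518 and rho = -0.447, and r = -0.382 without the 2 farthest libraries; within air, 0.4 ppm and 0.8 ppm this r was -0.708, -0.652 and -0.38. With the leukocyte share it had r = 0.454 over all libraries, and 0.628 in air, 0.575 at 0.4 ppm and 0.546 at 0.8 ppm. The epithelial share gave r = 0.143 over all libraries, and 0.843 in air, -0.143 at 0.4 ppm and -0.141 at 0.8 ppm. The erythroid share gave r = -0.011 over all libraries, and -0.165 in air, -0.496 at 0.4 ppm and -0.07 at 0.8 ppm. Log2 tRNA reads gave r = -0.108 over all libraries, and -0.558 in air, 0.032 at 0.4 ppm and 0.057 at 0.8 ppm. The ratio was highest in the library that also had the highest muscle and stroma share, 0.8 ppm replicate 7. The marker shares are parts of the same miRNA table, so a fall in the large germ cell share raises the others. Their relations with the ratio are therefore not separate. The part of other cells in the anticodon balance was not tested. The ratio also ran against the ratio between CTC copies (r = -0.591, rho = -0.636), with which it shares the CTC-1-1 to 1-7 values.

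**Figure D5:**
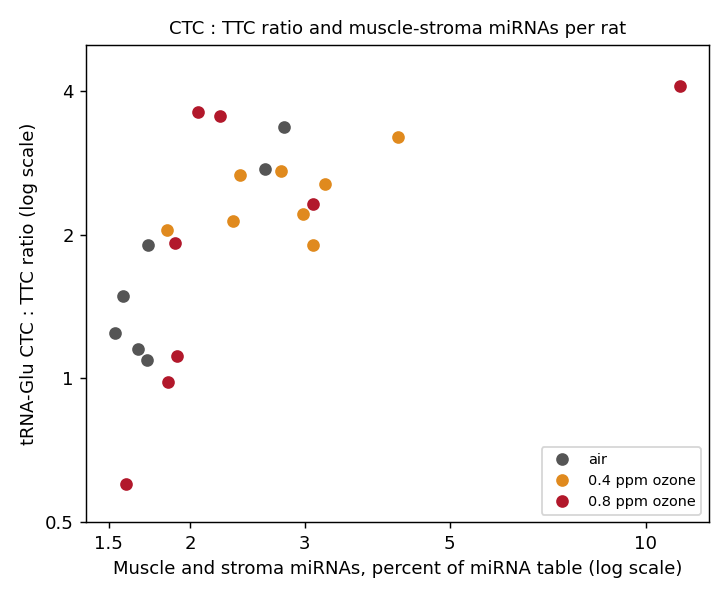
CTC:TTC ratio of each library against the summed share of muscle and stroma miRNAs in the miRNA table (percent), both on log axes, 1 point for each rat, coloured by exposure group. Over 23 libraries Spearman rho is 0.707, and 0.8 ppm replicate 7 stands apart with 11.3% muscle and stroma miRNA and a ratio of 4.09.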

How the data were processed

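Small RNA of cauda sperm was measured in 23 rats, 1 library each. Per the submitters' processing notes, the authors worked on build rn6 with Bowtie 1.0.0 and Partek; the rule for placing reads on tRNA genes is not stated there. In unit, the deposited tRNA and miRNA tables hold a signal: normalized counts. Ratios of each library's tRNA values to the geometric means of the entries had a median of 1.011 in every library, as median-ratio scaling gives. Dividing by the value of 1 read, 0.46 to 2.42, gave whole reads within 0.1 for 6151 of 6151 values checked. Few tRNA values were low, so edgeR 4.0.16 on these reads was only an alternative, chosen after seeing the data.

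The main test was limma 3.58.1 (R 4.3.3; trend, robust) on log2(value + 1), which understates folds of low entries, over 273 entries or 55 sums by anticodon and 3 groups in 1 model, with two-sided Benjamini-Hochberg adjusted p at 0.05. Entries above 0 in at least 8 libraries were kept, which removed none. Replicate numbers only name rats in accession order. The labels do not say how rats were housed or split into sequencing pools, and p-values measure the spread between these libraries. A sample suffix in the library names repeats between rats. Whether it marks separate pools is not stated, and no batch was modelled. RNA integrity numbers were 2 to 4, per the labels, with none per rat. The members, lists and tests were chosen with earlier results of these data known. Named entries were the 2 most abundant and the highest and lowest of each anticodon, and the entry of each anticodon with the smallest p in each comparison; other entries were named after their values were seen. Alternatives were other pseudocounts, filters, scalings, weights, tests and leaving out each rat. The script was tested on simulated data.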

Additional observations from a re-analysis of the deposited data

Results flagged for a closer look

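Across 50 quantities in 3 groups, 150 groups were checked for a rat far from the rest of its group, by the gap to the nearest rat over the group's range; 18 showed one, and chance alone gives about 1 in 20 groups. Many of these quantities have nearly equal values, and the 18 were not counted as separate events.

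Air replicate 6 was far above the other air rats in the CTC-1-1 to 1-5 set. Its normalized counts were 3584 for tRNA-Glu-CTC-1-2, 3558 for tRNA-Glu-CTC-1-3, 3547 for tRNA-Glu-CTC-1-4, 3581 for tRNA-Glu-CTC-1-5 and 3511 for tRNA-Glu-CTC-3-1. The mean of copies 1-1 to 1-5 was 3552, tRNA-Glu-CTC-2-1 stood at 103.7 and tRX-Glu-NNN-3-1 at 3485 in that rat. The same rat had the lowest germ cell miRNA share of the air group, 30.2%, and the highest leukocyte share, 4.65%. Leaving it out gave tRNA-Glu-CTC-1-5 a log2 fold change of 0.43 at 0.4 ppm against air, still short of the threshold.

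Air replicate 1 was far below the other air rats in tRNA-Glu-TTC-3-1, at 371.9, and in tRNA-Glu-TTC-4-4, at 247.9. In the 0.8 ppm group replicate 5 was far above the others in tRNA-Glu-TTC-4-2, at 498.5, and in the epithelial miRNA share, at 2.93%. Replicate 7 of that group had a muscle and stroma miRNA share of 11.3% and a leukocyte share of 4.59%, both far above the other 0.8 ppm rats. Outside the glutamate entries, the tRNA-Val-CAC share of 1.59% in air replicate 7 and the tRNA-His-GTG share of 0.277% in 0.4 ppm replicate 6 were far above their groups.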

How the results depend on the processing

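No glutamate entry passed in 12 of 12 alternatives at 0.4 ppm against air and at 0.8 ppm against 0.4 ppm. At 0.8 ppm against air none passed in 11 of 12. There, weighting libraries gave 4 of 19 glutamate entries, with values close to one another, against 22 of all 273 entries. Leaving out 1 rat at a time, the count ranged from 0 to 0 in the 3 comparisons. The CTC sum kept its sign in leave-one-out fits, from 0.09 to 0.28 at 0.4 ppm against air, -0.29 to -0.004 at 0.8 ppm against air and -0.48 to -0.20 at 0.8 ppm against 0.4 ppm. The TTC sum ranged from -0.49 to -0.20, from -0.49 to -0.15, and from -0.15 to 0.15 with 7 of 23 fits of the other sign. Quantile normalization turned the CTC sum to -0.17 at 0.4 ppm against air and 0.11 at 0.8 ppm against 0.4 ppm. The summed tRNA covariate turned it to 0.24 at 0.8 ppm against air and 0.02 at 0.8 ppm against 0.4 ppm, and tRNA-Glu-CTC-1-7 to 0.12 at 0.8 ppm against air. Scaling to the table total, which by construction moves all entries together, turned the 0.8 ppm against air sums to 0.14 (CTC) and 0.002 (TTC). At 0.8 ppm against 0.4 ppm the TTC sum was -0.02 with TMM factors and -0.36 with weights. The cause was not tested. Over alternatives the TTC sum's limma adjusted p at 0.8 ppm against air ran from 0.0501, with weights and a log2 fold change of -0.71, to 0.993. tRNA-Glu-TTC-5-1 gave no value with a minimum mean of 20. No paired analysis was possible because replicate numbers follow accession order and no label links rats across groups.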

Other observations

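The tRX-Glu entries lay outside the rule. tRX-Glu-NNN-3-1 averaged 2393 over the 7 air rats (SD 525), 2955 over the 8 rats at 0.4 ppm (SD 760) and 2479 over the 8 rats at 0.8 ppm (SD 1100), close to each of the tRNA-Glu-CTC-1-1 to 1-5 entries. tRX-Glu-NNN-8-1 was scarce, with 16.2 in air (SD 5.24), 19.04 at 0.4 ppm (SD 11.5) and 19.9 at 0.8 ppm (SD 9.77).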
